A study of Homo sapiens with 8 samples.

Results

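The genes described here are 42 genes of the amino acid response driven by the transcription factor ATF4, chosen by gene symbol from 58302 rows of a gene count table. They comprise 11 stress factors and effectors, 6 genes for the synthesis of asparagine, proline, alanine and cysteine, 6 genes of serine synthesis and mitochondrial one-carbon metabolism, 7 amino acid transporters and 12 cytosolic aminoacyl-tRNA synthetases. All 42 were found by Ensembl identifier, and 38 had enough counts to be tested. The values come from 8 RNA sequencing libraries made from lines derived from the established human cell line PATU-8902, which comes from a pancreatic adenocarcinoma. The study is about resistance to inhibition of TEAD, the transcription factors that act with 2 coactivators, YAP, encoded by YAP1, and TAZ, encoded by WWTR1. The resistant group (3 libraries) is a line propagated in vitro from a tumour that shYAP/WWTR1 cells formed in a nude mouse, kept in doxycycline, and its label calls it resistant to GNE-7883, a TEAD inhibitor. The shYAP_TAZ group (3 libraries) carries hairpins against YAP1 and WWTR1, and the shNTC group (2 libraries) carries a control hairpin. Both of these are labelled as sensitive to GNE-7883. The labels do not say whether these 2 groups were grown in doxycycline too. The resistant group is 1 tumour-derived line, so passage through the mouse, doxycycline and resistance cannot be told apart in it. All cells were grown in RPMI medium with Tet-free serum and L-glutamine, per the labels' protocols. The description of every library calls the material a xenograft, whereas the extraction protocol has cell lines lysed on the plate, and the values are taken here as those of cultured cells. The labels do not describe the libraries within a group as separate cultures, so the p-values below measure only the spread between these libraries, which may be technical.

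When an amino acid runs short, uncharged tRNA activates the kinase GCN2, which phosphorylates the initiation factor eIF2. General translation then slows while the ATF4 messenger is translated more. ATF4 pairs with C/EBP family proteins on C/EBP-ATF response elements and switches on genes that import amino acids, make them, charge them onto tRNA and adjust the stress response. Other kinases of eIF2 feed the same pathway from endoplasmic reticulum stress, haem shortage and double-stranded RNA. Because ATF4 is controlled largely at translation, its messenger level is only part of its regulation, and no protein was measured here.

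Each library held between 17521154 and 22629727 counts. The hairpin targets YAP1 and WWTR1 together amounted to 164.2 to 178.5 CPM in resistant libraries, 205.6 to 206.6 CPM in shYAP_TAZ libraries and 501.8 to 513.8 CPM in shNTC libraries, where CPM is the count per library scaled to a common depth with TMM factors. Both were lower in resistant and in shYAP_TAZ cells than in shNTC cells, but between resistant and shYAP_TAZ cells they differed in opposite directions, with YAP1 1.54-fold lower and WWTR1 1.42-fold higher in the resistant line (edgeR adjusted p = 2.1e-09 and 4.3e-07). The epithelial markers KRT8, KRT18, KRT19, EPCAM and CDH1 were detected in every group, with summed levels of 5099 to 5468 CPM in resistant libraries, 3743 to 3907 CPM in shYAP_TAZ libraries and 3351 to 3541 CPM in shNTC libraries. Summed levels of 6 fibroblast markers were 12.47 to 13.25, 6.135 to 7.179 and 1.902 to 3.077 CPM in resistant, shYAP_TAZ and shNTC libraries, mostly COL1A1. Summed levels of 5 leukocyte markers were 8.692 to 9.806, 2.584 to 3.505 and 1.902 to 2.28 CPM in the same order of groups, mostly LAPTM5. Those of 4 endothelial markers were 4.364 to 5.852, 9.217 to 11.39 and 1.346 to 1.824 CPM. The gene with the largest part in that sum was VWF, at 4.05 ± 0.598 CPM in resistant, 9.4 ± 1.44 CPM in shYAP_TAZ and 0.802 ± 0.478 CPM in shNTC cells (SD). VWF, COL1A1 and LAPTM5 were each higher in shYAP_TAZ and in resistant cells than in shNTC cells, by 12.1-fold, 3.19-fold and 1.59-fold and by 5.25-fold, 6.41-fold and 5.23-fold (edgeR adjusted p of at most 0.0081). PECAM1 went the other way in shYAP_TAZ cells, 2.51-fold lower than in shNTC cells (edgeR adjusted p = 0.0201), and did not pass in resistant against shNTC cells. PDGFRB passed only in the resistant line, 2.77-fold higher than in shNTC cells (edgeR adjusted p = 0.00997). CDH5 passed in neither of these comparisons. Other markers of these lists, COL3A1, DCN, LUM, KDR and PTPRC, were at or near 0 counts in every library. At such low sums, few cells of another type and low expression in the tumour cells cannot be told apart, and their part in the results below was not tested.

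The response element itself can be read in the promoters of 14 members. Promoters from RefSeq (GRCh38.p14, 250 bases before to 50 bases after the annotated start) were found for 34 of the 42 members. They were searched on both strands for TGATGNAA, whose reverse complement is TTNCATCA, a short form of the C/EBP-ATF response element. It was the only motif searched. It occurred in 14 of 34 member genes (41.2%), against 1217 of 27305 genes in the whole promoter table (4.46%). Among the members it was found in 7 of 10 synthetases and 4 of 7 transporters, in 2 of 10 stress factors, in 1 of 4 synthesis genes and in 0 of 3 serine and one-carbon genes. Of the other cytosolic synthetase and scaffold genes, 0 of 9 had it, and of the other ATF4 target genes 4 of 11 (36.4%). A match is only a description of these letters and is not proof of binding. The members were listed as ATF4 response genes to begin with, so their higher share is no independent result. The windows below belong to members whose levels are given later, read 5′ to 3′ on the strand of the gene, with the 8 letters of the match in capitals.
CHAC1: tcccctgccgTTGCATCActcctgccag
ASNS: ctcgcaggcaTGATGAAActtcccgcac
SLC3A2: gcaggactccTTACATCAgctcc
SLC1A4: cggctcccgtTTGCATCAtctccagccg
AARS1: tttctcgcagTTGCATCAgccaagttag
GARS1: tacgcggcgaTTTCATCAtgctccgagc
IARS1: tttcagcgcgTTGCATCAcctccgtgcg
TARS1: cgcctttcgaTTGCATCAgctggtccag

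The ASNS window, at chr7:97872459-97872486 on the minus strand, holds the form TGATGAAA, which begins 68 bases before the start and is part of the element long studied in that promoter. TTGCATCA was the form in CHAC1, SLC1A4, AARS1, IARS1 and TARS1. The CHAC1 window lies at chr15:40953252-40953279 and that of SLC1A4 at chr2:64989382-64989409, both on the plus strand. Those of AARS1 (chr16:70289676-70289703) and IARS1 (chr9:92293693-92293720) lie on the minus strand, and that of TARS1 on the plus strand at chr5:33440957-33440984. In SLC3A2 (chr11:62881726-62881748, plus strand) the match begins 37 bases after the start, inside the transcript, and in GARS1 (chr7:30594835-30594862, plus strand) it begins 33 bases before it.

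Members with and without the match had similar median changes. The search covered only this form and this window, so an element of another form or elsewhere would be missed. The split therefore cannot separate members with and without a response element. In shYAP_TAZ relative to shNTC cells the median log2 fold change was -0.54 for the 14 members with a match and -0.53 for the 17 tested members whose promoter lacked one. Of those with a match 13 fell and 0 rose, and of those without one 13 fell and 2 rose. Over all tested genes 30.4% fell and 30.3% rose at an edgeR adjusted p under 0.05.

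The members spanned a wide range of abundance. On the deposited RPKM scale, which corrects for gene length, the stress-induced mTORC1 inhibitor DDIT4 was the most abundant member in every group, with 351 ± 9.39 RPKM in resistant cells, 280.3 ± 19.2 in shYAP_TAZ cells and 357 ± 16.9 in shNTC cells (mean ± SD, n = 3, 3 and 2). The leucine transporter subunit SLC7A5 came next in shNTC cells at 290.1 ± 36.7 RPKM, but stood at 65.6 ± 0.876 in resistant cells and 55.1 ± 1.91 in shYAP_TAZ cells. The synthetases ranged from 28.4 ± 0.572 RPKM for CARS1 in shYAP_TAZ cells to 166 ± 1.2 for TARS1 in shNTC cells. ATF4 itself was at 43.6 ± 2.03, 36.9 ± 0.655 and 56.8 ± 3.15 RPKM in resistant, shYAP_TAZ and shNTC cells.

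At the other end, the first steps of serine synthesis were barely detected. PHGDH, the enzyme that commits glycolytic carbon to serine, had 3, 5 and 3 counts in the resistant libraries, 0 in every shYAP_TAZ library, and 0 and 1 in the shNTC libraries. PSAT1, the next enzyme, had 5 counts over all 8 libraries, and its pseudogene PSAT1P3 had 7. ALDH1L2, which oxidises mitochondrial formyl-tetrahydrofolate, had 33 counts over all libraries. CBS, the first enzyme of transsulfuration, was at 0 counts throughout, but it has a near-identical annotated copy that is also at 0, so reads of both may not have been counted. These 4 members were not tested. A count of 0 allows up to 3 counts, which is 0.134 to 0.171 CPM depending on the library and covers counting error only. PSPH, the last enzyme of the same serine pathway, was well expressed in all groups.

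**Figure D1:**
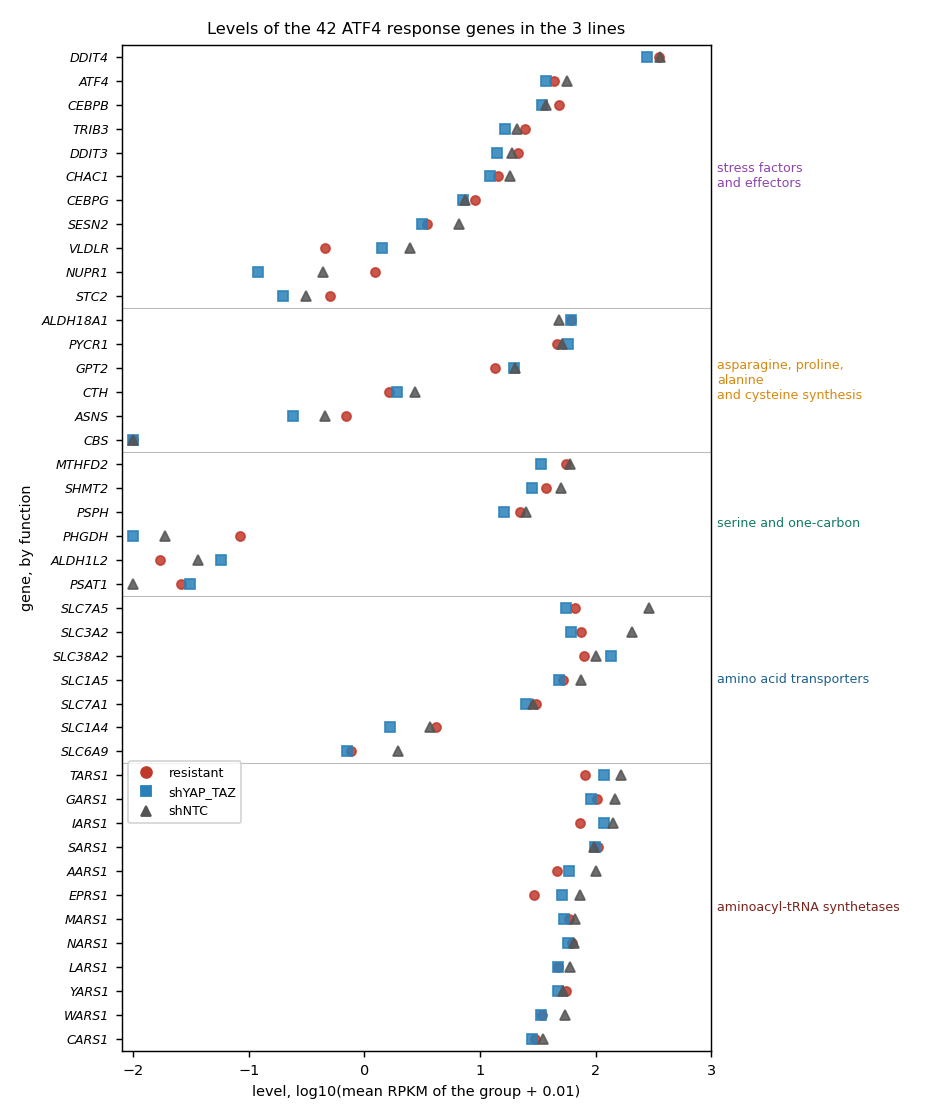
Mean level of each of the 42 members by group, as log10 of the mean deposited RPKM plus 0.01 (horizontal axis). Each gene is a row, with members arranged by function, and colour and marker shape give the group. DDIT4 is the most abundant member at 351, 280.3 and 357 RPKM in resistant, shYAP_TAZ and shNTC cells, and CBS, PHGDH, PSAT1 and ALDH1L2 lie at the low end of the scale.

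Across the members, the commonest change on knockdown, meaning shYAP_TAZ relative to shNTC cells, was a fall. In shYAP_TAZ relative to shNTC cells 31 of 38 tested members fell (background 30.4% of 16256 tested genes) and 3 rose (background 30.3%), at an edgeR quasi-likelihood adjusted p under 0.05, and the median log2 fold change was -0.52 against 0.001 over all tested genes. The members that rose were PYCR1, ALDH18A1 and SLC38A2. The library values did not overlap between the groups for 35 of the 38, where 71.6% of all tested genes did not.

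In resistant relative to shYAP_TAZ cells 19 of 38 members rose (background 31.0%) and 8 fell (background 31.4%), with a median of 0.13 against 0.0025 over all tested genes. The 8 that fell were VLDLR, PYCR1, GPT2, SLC38A2 and the synthetases AARS1, EPRS1, IARS1 and TARS1. Relative to shNTC cells, 23 members were lower in resistant cells (background 32.6%) and 6 were higher (background 30.1%), with a median of -0.31 against -0.01. The higher members were TRIB3, NUPR1, CEBPB, CEBPG, STC2 and ALDH18A1. Groups did not overlap for 31 members in resistant against shYAP_TAZ cells (67.3% of all tested genes) and for 33 in resistant against shNTC cells (72.4%). The 3 comparisons share libraries pairwise, so their values are given side by side below and their likeness is no separate result. The same background shares apply to the counts given by function below.

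**Figure D2:**
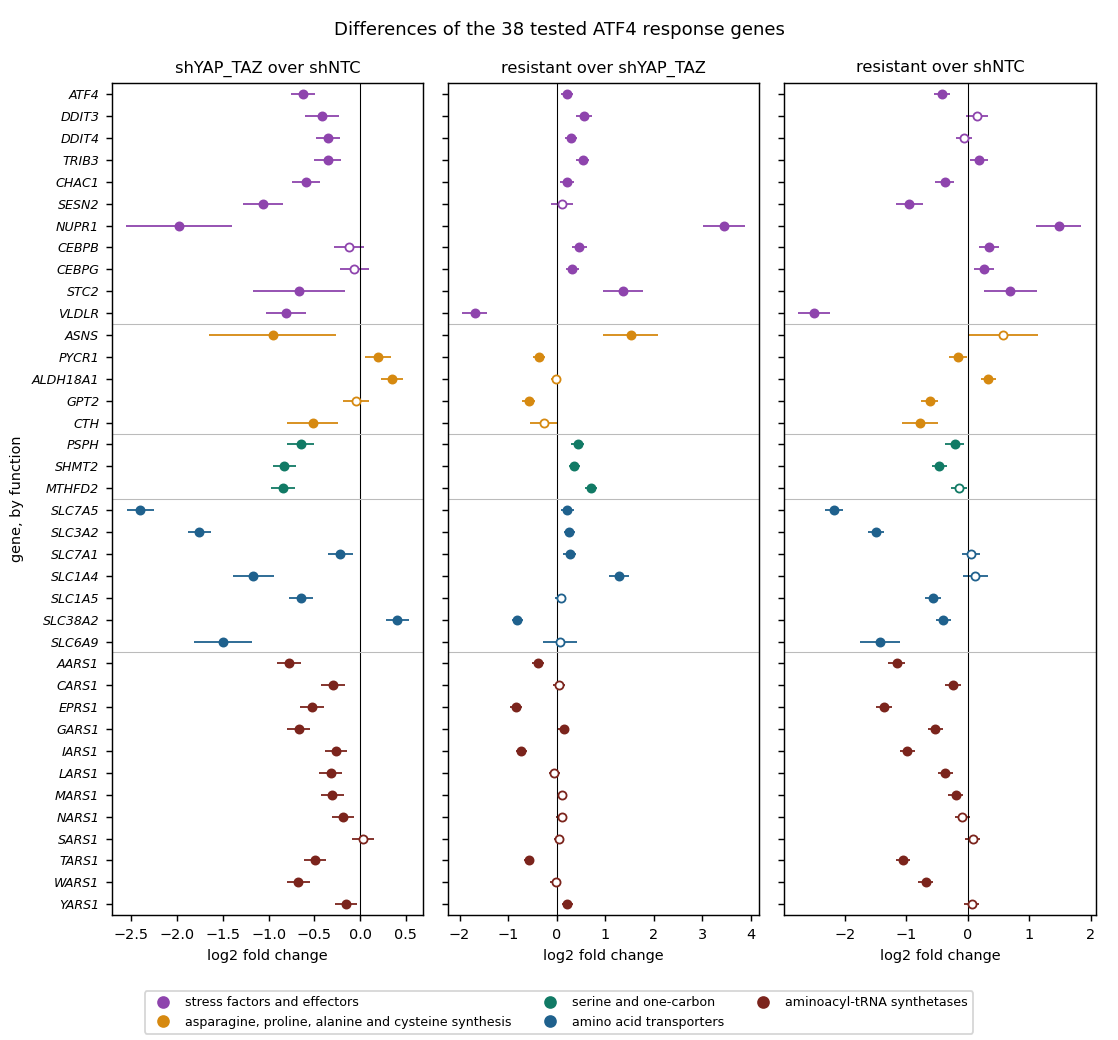
Log2 fold change of the 38 tested members, by function, in shYAP_TAZ against shNTC, resistant against shYAP_TAZ and resistant against shNTC cells (panels), with 95% intervals from the edgeR fit and filled points for an adjusted p under 0.05. In the first panel 31 points are filled and below 0, and SLC7A5 (-2.40), NUPR1 (-1.98) and SLC3A2 (-1.76) lie farthest to the left.

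Among the stress factors, ATF4 and most of its effectors were lower in shYAP_TAZ than in shNTC cells. The resistant line had higher levels of most of them than shYAP_TAZ cells. Of 11 tested, 9 fell and 0 rose in shYAP_TAZ relative to shNTC cells (median -0.59). In resistant relative to shYAP_TAZ cells 9 rose and 1 fell (median 0.33). Relative to shNTC cells 5 were higher and 4 lower in the resistant line (median 0.15).

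ATF4, the head of the response, had 114, 105 and 106 CPM in resistant libraries, 93, 95.4 and 92.1 CPM in shYAP_TAZ libraries, and 139 and 149 CPM in shNTC libraries. The 3 groups did not overlap, and the resistant libraries lay between the other groups. Its log2 fold change was -0.63 ± 0.06 (SE) in shYAP_TAZ against shNTC cells (edgeR adjusted p = 2.2e-08), 0.21 ± 0.06 in resistant against shYAP_TAZ cells (edgeR adjusted p = 0.0032) and -0.42 ± 0.06 in resistant against shNTC cells (edgeR adjusted p = 5.7e-06).

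NUPR1, a small stress-induced chromatin protein, showed the largest rise in the resistant line. It had 7.19, 5.99 and 7 CPM in resistant libraries, 0.722, 0.669 and 0.439 CPM in shYAP_TAZ libraries, and 1.88 and 2.88 CPM in shNTC libraries. Every resistant library lay above every other library, and the shYAP_TAZ libraries were the lowest. The gene was 3.94-fold lower in shYAP_TAZ than in shNTC cells (edgeR adjusted p = 3.1e-06), 11-fold higher in resistant than in shYAP_TAZ cells (8.8e-12 by the same test) and 2.78-fold higher in resistant than in shNTC cells (4.0e-07). STC2, which encodes the secreted glycoprotein stanniocalcin 2, followed the same order at low levels. It had 2.41, 2.74 and 2.68 CPM in resistant libraries, 1.08, 0.981 and 0.975 CPM in shYAP_TAZ libraries, and 1.77 and 1.48 CPM in shNTC libraries. No groups overlapped. The log2 fold changes were -0.67 ± 0.24 on knockdown, 1.36 ± 0.20 in resistant against shYAP_TAZ cells and 0.69 ± 0.20 in resistant against shNTC cells. The fall on knockdown did not pass without the first shNTC library, with DESeq2 (adjusted p = 0.0791) or with limma on the log2 RPKM scale (0.0613 to 0.127), and the rise over shNTC did not pass without the second shNTC library (edgeR adjusted p = 0.0909).

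VLDLR, a lipoprotein receptor gene known as an ATF4 target in the unfolded protein response, fell on knockdown and was lower still in the resistant line. Its levels were 4.11, 4.31 and 3.68 CPM in resistant libraries, 13.6, 12.4 and 13 CPM in shYAP_TAZ libraries, and 19.7 and 25.6 CPM in shNTC libraries. The groups did not overlap, and the resistant libraries were the lowest. VLDLR was 1.75-fold lower in shYAP_TAZ than in shNTC cells, 3.22-fold lower in resistant than in shYAP_TAZ cells and 5.66-fold lower in resistant than in shNTC cells (edgeR adjusted p = 9.1e-07, 2.2e-10 and 4.0e-13). SESN2, an inhibitor of mTORC1 that senses leucine, stayed low in the resistant line. It had 10.7, 11.5 and 13 CPM in resistant libraries, 12, 11.1 and 9.8 CPM in shYAP_TAZ libraries, and 24.9 and 20.9 CPM in shNTC libraries. Resistant and shYAP_TAZ libraries overlapped and both lay below shNTC. Its log2 fold change was -1.06 ± 0.11 on knockdown and -0.95 ± 0.11 in resistant against shNTC cells, and the difference of resistant from shYAP_TAZ cells was 0.11 with a 95% interval of -0.11 to 0.33.

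CHAC1, which degrades glutathione, likewise remained below shNTC in the resistant line, with a mean of 29.2 ± 0.937 CPM in resistant cells, 25.2 ± 0.708 CPM in shYAP_TAZ cells and 38 ± 2.71 CPM in shNTC cells (SD). Its difference between resistant and shYAP_TAZ cells, 0.21 on the log2 scale, did not pass without the first shYAP_TAZ library (edgeR adjusted p = 0.0518). TRIB3, a pseudokinase that restrains ATF4, reached 65.5, 70.9 and 73.5 CPM in resistant libraries, against 50, 46 and 48.4 CPM in shYAP_TAZ libraries and 63.3 and 59.9 CPM in shNTC libraries. The resistant libraries lay above all others. The log2 fold change of TRIB3 was -0.35 on knockdown, 0.54 in resistant against shYAP_TAZ cells and 0.18 in resistant against shNTC cells, and the last did not pass without any 1 of resistant libraries 2 and 3 and the second shNTC library. DDIT3, the pro-apoptotic factor CHOP, averaged 24.8 ± 0.543 CPM in resistant, 16.7 ± 1.16 CPM in shYAP_TAZ and 22.3 ± 2.38 CPM in shNTC cells (SD). The DDIT3 exons overlap on the opposite strand with other genes, MARS1 foremost, over 39.63% of their length, and the kit did not mark strand, so some of its counts may belong to these genes.

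The remaining stress factors moved less. DDIT4 fell on knockdown (-0.35) and was higher in resistant than in shYAP_TAZ cells (0.29), and its difference between resistant and shNTC cells was -0.06 with a 95% interval of -0.19 to 0.07. The C/EBP family factors CEBPB and CEBPG, dimer partners of ATF4, did not pass on knockdown (-0.12 and -0.06) but were higher in resistant cells, at 92.9 ± 9.34 and 39.6 ± 1.71 CPM, than in shYAP_TAZ cells, at 67.3 ± 1.45 and 31.6 ± 1.51 CPM (SD). The knockdown difference of CEBPB passed without the second shNTC library (edgeR adjusted p = 0.0314), and the rise of CEBPG over shNTC did not pass without that library (0.0684). The 20 tested genes nearest CEBPB had a median log2 fold change of 0.79 in resistant against shYAP_TAZ cells, above the 95th percentile of 0.33 for such medians over all genes. Its own value there was 0.47.

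**Figure D3:**
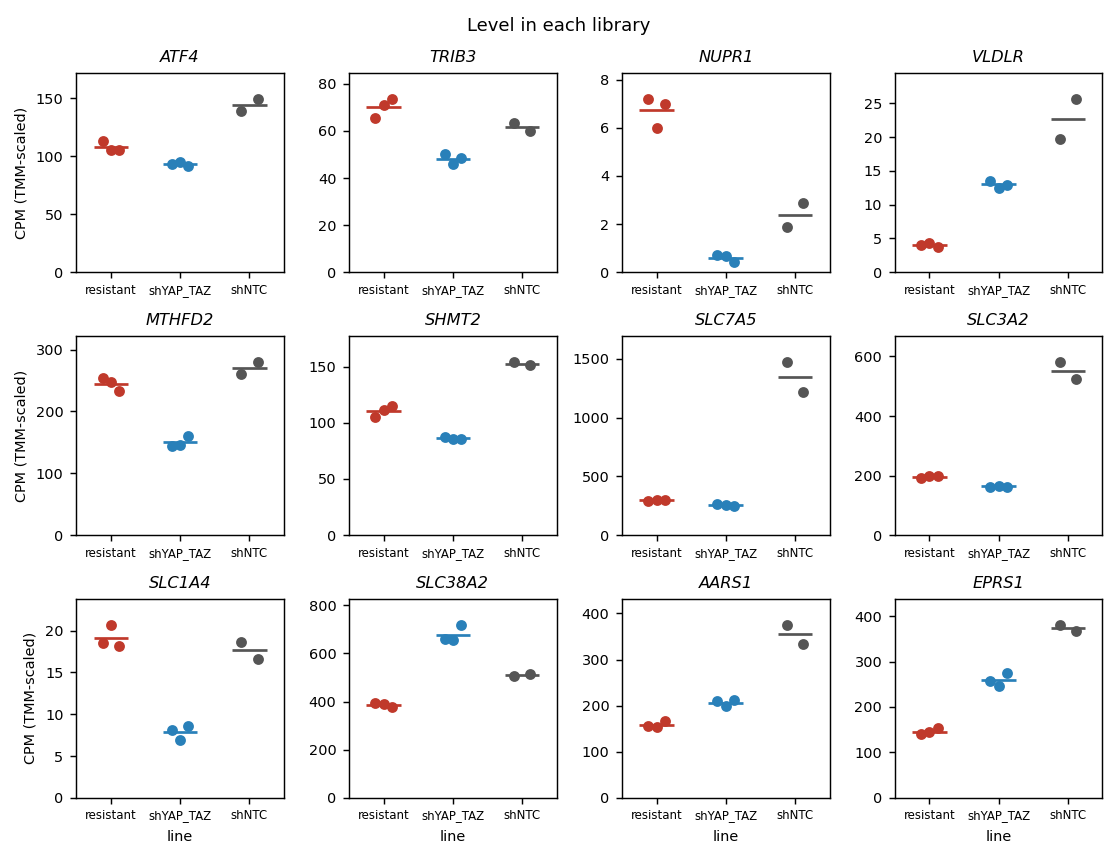
CPM in every library (points) and group means (bars) for 12 members, with resistant, shYAP_TAZ and shNTC groups from left to right in each panel. SLC7A5 stands at 246 to 301 CPM in the 6 resistant and shYAP_TAZ libraries, against 1474 and 1220 CPM in shNTC libraries, while NUPR1 is highest in the resistant libraries.

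All 3 tested serine and one-carbon genes fell on knockdown and were higher in the resistant line than in shYAP_TAZ cells. Their log2 fold changes ran from -0.85 to -0.65 in shYAP_TAZ against shNTC cells and from 0.36 to 0.70 in resistant against shYAP_TAZ cells. In resistant against shNTC cells 2 were lower and 1 did not pass.

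MTHFD2, a mitochondrial dehydrogenase of one-carbon metabolism, had 254, 248 and 233 CPM in resistant libraries, 145, 146 and 160.5 CPM in shYAP_TAZ libraries, and 260.2 and 279.9 CPM in shNTC libraries. The resistant libraries lay just below the shNTC ones and well above those of shYAP_TAZ, with no overlap. It was 1.8-fold lower in shYAP_TAZ than in shNTC cells (edgeR adjusted p = 3.9e-10) and 1.63-fold higher in resistant than in shYAP_TAZ cells (1.5e-09). Its difference of resistant from shNTC cells was -0.14, with a 95% interval of -0.28 to -0.01 and an edgeR adjusted p of 0.063. The processed pseudogenes MTHFD2P7 and MTHFD2P5 took 1546 and 818 counts over all libraries, against 34040 for MTHFD2, so a small part of its reads may have been split among them.

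SHMT2, the mitochondrial enzyme that splits serine into glycine and a one-carbon unit, had 105, 112 and 115 CPM in resistant libraries, 87.1, 85.9 and 85.5 CPM in shYAP_TAZ libraries, and 154 and 151 CPM in shNTC libraries. Resistant libraries lay between the other groups and overlapped neither. The log2 fold changes were -0.83 ± 0.06 on knockdown, 0.36 ± 0.06 in resistant against shYAP_TAZ cells and -0.47 ± 0.06 in resistant against shNTC cells (edgeR adjusted p = 1.9e-10, 8.2e-06 and 8.5e-07). PSPH, which releases serine in the last step, had 50.1, 48.7 and 43.9 CPM in resistant libraries, 34.8, 35.3 and 35.5 CPM in shYAP_TAZ libraries, and 56.7 and 53.9 CPM in shNTC libraries. The order of the groups was as for SHMT2, again without overlap. Its fall on knockdown was 1.57-fold, and its lower level in resistant than in shNTC cells, 1.16-fold, did not pass without resistant library 3 or the first shNTC library.

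Of 13 tested one-carbon and glycine genes outside the members, 6 fell and 2 rose on knockdown (46.2% and 15.4%, background 30.4% and 30.3%, median -0.14). In resistant against shYAP_TAZ cells 4 rose and 4 fell (30.8% each, near the background of 31.0% and 31.4%, median 0.04). In resistant against shNTC cells 7 were lower and 4 higher (53.8% and 30.8%, background 32.6% and 30.1%, median -0.21). TYMS, the thymidylate synthase, had a mean of 100.1 ± 1.82 CPM in resistant, 71.8 ± 2.4 CPM in shYAP_TAZ and 151 ± 0.825 CPM in shNTC cells (SD). ALDH1L1, the cytosolic counterpart of the nearly silent ALDH1L2, went against the majority and was highest in the resistant line, at 42.2 ± 1.85 CPM, with 19.7 ± 1.1 CPM in shYAP_TAZ and 8.88 ± 0.0198 CPM in shNTC cells.

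The synthesis genes for asparagine, proline, alanine and cysteine did not share a direction. Of 5 tested, 2 rose and 2 fell on knockdown (median -0.04), 1 rose and 2 fell in resistant against shYAP_TAZ cells (median -0.27), and 1 was higher and 3 were lower in resistant against shNTC cells (median -0.17).

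ASNS, asparagine synthetase, is a classic target of ATF4 but was counted at a very low level. It had 2.21, 1.45 and 1.34 CPM in resistant libraries, 0.567, 0.58 and 0.585 CPM in shYAP_TAZ libraries, and 1.2 and 1.07 CPM in shNTC libraries. Resistant libraries were the highest and shYAP_TAZ libraries the lowest, with no overlap between groups. The log2 fold change was -0.96 ± 0.33 on knockdown (edgeR adjusted p = 0.017, 0.0807 without the first shNTC library, and 0.068 and 0.106 with limma on log2(RPKM + 1), filtered and unfiltered), 1.52 ± 0.28 in resistant against shYAP_TAZ cells (6.7e-05) and 0.57 ± 0.27 in resistant against shNTC cells (0.076, and 0.0358 without resistant library 3). These values rest on 176 counts over all libraries and their level is uncertain. The ASNS exons share 1985 of 4455 bases with the overlapping gene AC079781.5 on the same strand, which itself had 12 counts, and the pseudogene ASNSP1 had 51 counts, 29% of those of ASNS. The 20 nearest tested genes had a median of 0.42 in resistant against shNTC cells, just above the 95th percentile of such medians. Over all protein-coding rows, those with 40 to 80% of their exonic bases shared on the same strand were at 0 counts in 24.3% of cases and those with 80% or more in 58.0%, against 16.9% of those with none. Reads in shared exons may not have been counted, but this was not tested.

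Both proline genes rose on knockdown. ALDH18A1, which makes the precursor of proline, had 200.5, 203 and 209 CPM in resistant libraries, 208, 201 and 209 CPM in shYAP_TAZ libraries, and 163 and 161 CPM in shNTC libraries. The resistant and shYAP_TAZ libraries overlapped and all lay above shNTC. Its log2 fold change was 0.35 ± 0.06 on knockdown and 0.33 ± 0.06 in resistant against shNTC cells (edgeR adjusted p = 2.8e-05 and 4.1e-05). PYCR1, the final enzyme of proline synthesis, averaged 105 ± 3.7 CPM in resistant, 135 ± 3.32 CPM in shYAP_TAZ and 118 ± 14.4 CPM in shNTC cells (SD). The rise of PYCR1 on knockdown, 0.19, did not pass without shYAP_TAZ library 2 or shNTC library 2, and its lower level in resistant than in shNTC cells, -0.17, did not pass under 16 of 19 alternative settings.

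GPT2, the mitochondrial alanine transaminase, was lower in the resistant line than in either other group. It had 54.1, 59.9 and 63.2 CPM in resistant libraries, 90.6, 88.5 and 85.7 CPM in shYAP_TAZ libraries, and 90.8 and 91.1 CPM in shNTC libraries. The resistant libraries lay below all others. Its log2 fold change was -0.58 ± 0.06 in resistant against shYAP_TAZ cells (edgeR adjusted p = 7.1e-08), and the 20 nearest tested genes had a median of -0.49 there, outside the 5th to 95th percentile of such medians (-0.48 to 0.33). CTH, which makes cysteine from cystathionine, had 3.59, 3.3 and 3.28 CPM in resistant libraries, 3.97, 3.92 and 4.39 CPM in shYAP_TAZ libraries, and 5.87 and 5.85 CPM in shNTC libraries. The resistant libraries were the lowest and the shNTC libraries the highest. CTH fell on knockdown (-0.52 ± 0.13, edgeR adjusted p = 0.0023) and was lower in resistant than in shNTC cells (-0.79 ± 0.14, 5.4e-05), while its difference between resistant and shYAP_TAZ cells had a 95% interval of -0.55 to 0.01.

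Of the 5 functions, the transporters had the lowest median on knockdown. Of 7 tested, 6 fell and 1 rose in shYAP_TAZ relative to shNTC cells (median -1.17). In resistant against shYAP_TAZ cells 4 rose and 1 fell (median 0.22). In resistant against shNTC cells 5 were lower and 0 higher (median -0.56).

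SLC7A5 and SLC3A2 encode the light and heavy chains of LAT1, the exchanger that imports leucine and other large neutral amino acids, and both fell on knockdown and stayed low in the resistant line. SLC7A5 had 291, 298 and 301 CPM in resistant libraries, 265, 254 and 246 CPM in shYAP_TAZ libraries, and 1474 and 1220 CPM in shNTC libraries. SLC3A2 had 191, 197 and 199 CPM in resistant libraries, 161, 166 and 162 CPM in shYAP_TAZ libraries, and 582 and 524 CPM in shNTC libraries. For both genes the resistant libraries lay slightly above the shYAP_TAZ libraries and far below the shNTC libraries, with no overlap. On knockdown SLC7A5 was 5.28-fold lower and SLC3A2 3.38-fold lower (edgeR adjusted p = 2.0e-16 and 1.6e-15). In the resistant line they were 1.16-fold and 1.2-fold higher than in shYAP_TAZ cells, and 4.54-fold and 2.82-fold lower than in shNTC cells. The annotated pseudogene SLC7A5P1 held 62 counts over all libraries, against 85081 for SLC7A5.

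SLC6A9, the glycine transporter GLYT1, had 3.03, 4.03 and 2.48 CPM in resistant libraries, 3.09, 2.9 and 3.07 CPM in shYAP_TAZ libraries, and 8.66 and 8.4 CPM in shNTC libraries. The resistant libraries spanned those of shYAP_TAZ, and all 6 lay below shNTC. SLC6A9 shares 7.83% of its exonic bases with other genes, mainly CCDC24 on the opposite strand, which had 1566 counts against 702 for SLC6A9 over all libraries. It was 2.82-fold lower on knockdown (edgeR adjusted p = 3.4e-08) and 2.7-fold lower in resistant than in shNTC cells (6.5e-08). SLC1A5, the glutamine transporter ASCT2, showed the same shape at a smaller size, with log2 fold changes of -0.64 on knockdown, 0.08 (95% interval -0.04 to 0.20) in resistant against shYAP_TAZ cells and -0.56 in resistant against shNTC cells.

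SLC1A4, the related neutral amino acid transporter ASCT1, fell on knockdown and was higher in the resistant line than in shYAP_TAZ cells. It had 18.5, 20.7 and 18.1 CPM in resistant libraries, 8.09, 6.91 and 8.53 CPM in shYAP_TAZ libraries, and 18.7 and 16.6 CPM in shNTC libraries. Resistant and shNTC libraries overlapped, and both lay above shYAP_TAZ. SLC1A4 fell 2.25-fold on knockdown (edgeR adjusted p = 8.3e-09) and was 2.44-fold higher in resistant than in shYAP_TAZ cells (3.7e-10), and its difference between resistant and shNTC cells was 0.12 with a 95% interval of -0.09 to 0.32. SLC7A1, the arginine and lysine transporter CAT1, moved in the same directions at a small size, by -0.21 on knockdown and 0.26 in resistant against shYAP_TAZ cells, and the first did not pass without the first shNTC library.

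SLC38A2, the sodium-coupled transporter SNAT2 that cells induce when amino acids are scarce, was the transporter that rose on knockdown. It had 395, 390.1 and 376 CPM in resistant libraries, 659, 657 and 719 CPM in shYAP_TAZ libraries, and 507 and 516 CPM in shNTC libraries. The groups did not overlap, with shYAP_TAZ highest and resistant lowest. The 20 tested genes nearest SLC38A2 had a median log2 fold change of 0.35 on knockdown, just above the 95th percentile of such medians over all genes, and their part in its rise was not tested. Its log2 fold change was 0.41 ± 0.06 on knockdown, -0.81 ± 0.05 in resistant against shYAP_TAZ cells and -0.40 ± 0.06 in resistant against shNTC cells (edgeR adjusted p = 6.0e-06, 4.5e-11 and 5.6e-06).

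Of 14 tested amino acid transporters outside the members, 5 fell and 5 rose on knockdown (35.7% each, background 30.4% and 30.3%, median 0.15). The cystine transporter gene SLC7A11, also a known ATF4 target and named here after its values were seen, had 38.8 ± 3.38 CPM in resistant, 24.9 ± 0.898 CPM in shYAP_TAZ and 65.9 ± 2.46 CPM in shNTC cells (SD). Its log2 fold changes were -1.40, 0.64 and -0.77 in the 3 comparisons, each with an edgeR adjusted p of at most 1.6e-07.

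The synthetases, which charge tRNAs with amino acids, fell moderately on knockdown, and shared no direction in the resistant line relative to shYAP_TAZ cells. Of 12 tested, 11 fell and 0 rose in shYAP_TAZ against shNTC cells (median -0.31). SARS1, the seryl enzyme, did not pass in any comparison (0.03, 0.04 and 0.08). In resistant against shYAP_TAZ cells 2 rose, 4 fell and 6 did not pass (median 0.01). The share that fell there, 33.3%, was near the background of 31.4%. In resistant against shNTC cells 9 were lower and 0 higher (median -0.45).

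EPRS1, which charges glutamate and proline tRNAs, had 139.9, 144 and 153 CPM in resistant libraries, 258, 245 and 276 CPM in shYAP_TAZ libraries, and 381 and 368 CPM in shNTC libraries. The alanyl enzyme AARS1 had 156, 153 and 166 CPM in resistant libraries, 209.8, 199 and 211 CPM in shYAP_TAZ libraries, and 375 and 334 CPM in shNTC libraries. TARS1, the threonyl enzyme, had 368, 369.6 and 360 CPM in resistant libraries, 533, 531 and 564 CPM in shYAP_TAZ libraries, and 763 CPM in both shNTC libraries. In all 3 genes the resistant libraries were the lowest and the shNTC libraries the highest, without overlap. Relative to shNTC cells, the resistant cells were 2.57-fold lower for EPRS1, 2.24-fold lower for AARS1 and 2.09-fold lower for TARS1 (edgeR adjusted p = 1.2e-13, 1.7e-12 and 9.9e-13). The isoleucyl gene IARS1 followed the same order, at 345 ± 1.91 CPM in resistant, 571 ± 29.5 CPM in shYAP_TAZ and 684 ± 17.7 CPM in shNTC cells (SD).

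The genes next to these synthetases had medians below 0 in the resistant line, most of them within the range found over all genes. In resistant against shYAP_TAZ cells the 20 nearest tested genes had a median log2 fold change of -0.39 around EPRS1, -0.40 around AARS1, -0.51 around IARS1 and -0.19 around TARS1. Their own values were -0.83, -0.38, -0.73 and -0.57. The 5th to 95th percentile of such medians over all genes was -0.48 to 0.33, so that of IARS1 lay outside and the others inside. Around LARS1, which itself did not pass there (-0.05), the median was also -0.40. In resistant against shNTC cells the median around EPRS1 was -0.81, outside the range of -0.60 to 0.42. The neighbours' part in these results was not tested.

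GARS1 and YARS1, for glycine and tyrosine, went the other way. GARS1 averaged 271 ± 9.2 CPM in resistant, 245 ± 9.69 CPM in shYAP_TAZ and 391 ± 5.32 CPM in shNTC cells (SD), a log2 rise of 0.14 over shYAP_TAZ that did not pass without any 1 of 4 libraries (resistant 2 and 3, shYAP_TAZ 1 and 2). YARS1 averaged 178 ± 2.45, 153 ± 2.6 and 170.5 ± 8.17 CPM in these groups, and its fall on knockdown (-0.16) did not pass without any 1 of shYAP_TAZ libraries 1 and 2 and the first shNTC library. WARS1 fell with GARS1 on knockdown (both -0.67). CARS1, LARS1, MARS1 and NARS1 fell by less, with log2 fold changes of -0.29, -0.32, -0.30 and -0.19. The fall of NARS1 on knockdown, and the lower level of MARS1 in resistant than in shNTC cells (-0.20), did not pass without the first shNTC library (edgeR adjusted p = 0.0545 and 0.132).

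Synthetase and scaffold genes of the cytosol outside the members mostly did not fall on knockdown. Of these 11, 6 rose and 2 fell (54.5% and 18.2%, background 30.3% and 30.4%, median 0.24). In resistant against shYAP_TAZ cells 3 rose and 6 fell (27.3% and 54.5%, background 31.0% and 31.4%, median -0.24). In resistant against shNTC cells 3 were higher and 3 lower (27.3% each, near the background of 30.1% and 32.6%, median -0.11). The valyl gene VARS1 averaged 115 ± 3.39 CPM in resistant, 162 ± 6.82 CPM in shYAP_TAZ and 113 ± 19.6 CPM in shNTC cells (SD). AIMP2, a scaffold of the multisynthetase complex, was at 81.7 ± 1.93, 68.9 ± 1.01 and 48.7 ± 2.03 CPM in these groups, though 532 of its exonic bases overlap EIF2AK1 on the other strand. FARSB, a subunit of the phenylalanyl enzyme, was among the 2 that fell, at 136 ± 3.6, 116 ± 3.04 and 164 ± 4.89 CPM.

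The 17 mitochondrial synthetases, encoded by separate genes, gave 10 falls and 2 rises on knockdown (58.8% and 11.8%, background 30.4% and 30.3%, median -0.26). In resistant against shYAP_TAZ cells they gave 8 rises and 6 falls (47.1% and 35.3%, background 31.0% and 31.4%, median 0.13). In resistant against shNTC cells 9 were lower and 4 higher (52.9% and 23.5%, background 32.6% and 30.1%, median -0.35). IARS2, a chromosome 1 neighbour of EPRS1, had 161 ± 5.66 CPM in resistant, 201 ± 6.94 CPM in shYAP_TAZ and 321 ± 3.65 CPM in shNTC cells (SD). AARS2 and TARS2 had the same order, with log2 fold changes of -1.10 and -0.89 in resistant against shNTC cells, and CARS2 went against the majority on knockdown (0.83).

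**Figure D4:**
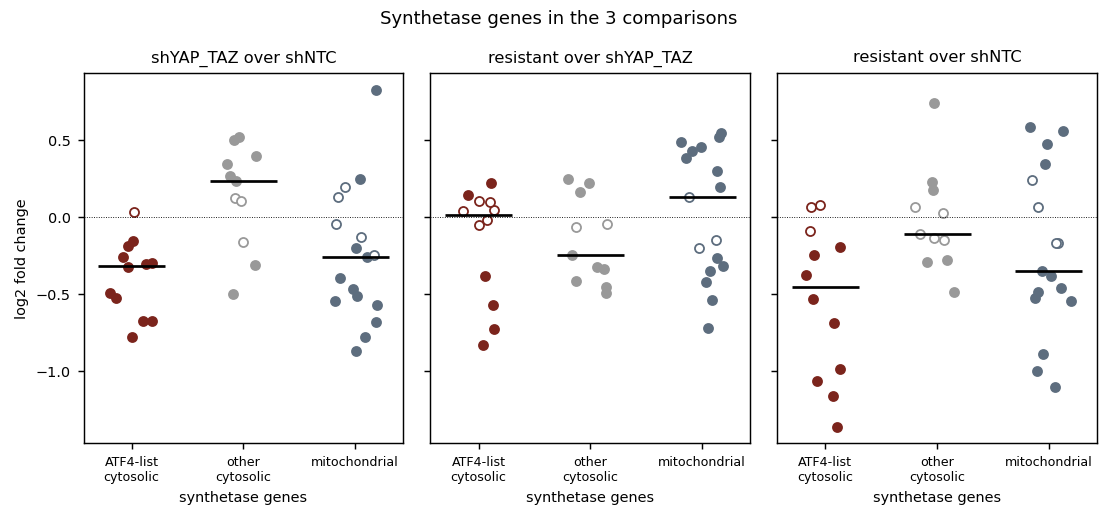
Log2 fold change of each gene (points, filled for an edgeR adjusted p under 0.05) and the median (bar) for the 12 member synthetases, 11 other cytosolic synthetase and scaffold genes and 17 mitochondrial synthetases in the 3 comparisons. On knockdown the medians are -0.31 for the members, 0.24 for the other cytosolic genes and -0.26 for the mitochondrial genes.

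Upstream of ATF4, the genes that control eIF2 were called in both directions, as were tested genes in general. Of 18 tested genes for eIF2 kinases, eIF2, eIF2B and phosphatase subunits, 6 rose and 3 fell on knockdown (33.3% and 16.7%, background 30.3% and 30.4%, median -0.07). In resistant against shYAP_TAZ cells 7 rose and 2 fell (38.9% and 11.1%, background 31.0% and 31.4%, median 0.11). In resistant against shNTC cells 8 were higher and 3 lower (44.4% and 16.7%, background 30.1% and 32.6%, median 0.06). EIF2AK4, which encodes GCN2, averaged 104 ± 3.57 CPM in resistant, 105 ± 3.06 CPM in shYAP_TAZ and 98.9 ± 1.77 CPM in shNTC cells (SD) and did not pass in any comparison. The largest changes were in EIF2B2, a subunit of the exchange factor that phosphorylated eIF2 inhibits, at 94.6 ± 3.23, 58.5 ± 1.73 and 27.3 ± 0.555 CPM in these groups, and in GCN1, the partner of GCN2, at 348 ± 25.5, 309 ± 5 and 184 ± 20.3 CPM. PPP1R15B, the constitutive subunit of the eIF2 phosphatase, rose on knockdown by 0.84 on the log2 scale. EIF2AK2, the double-stranded RNA sensor PKR, fell on knockdown by 0.46 on the log2 scale, and EIF2AK1, the haem-regulated kinase HRI, was lower in resistant than in shYAP_TAZ cells (-0.35).

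Of 13 tested ATF4 targets outside the members, 9 fell and 2 rose on knockdown (69.2% and 15.4%, background 30.4% and 30.3%, median -0.28). SLC7A11, MTHFD1L and PPP1R15A in this list were also counted above, among the other transporters, the other one-carbon genes and the eIF2 genes. In resistant against shYAP_TAZ cells 6 rose and 4 fell (46.2% and 30.8%, background 31.0% and 31.4%, median 0.31). In resistant against shNTC cells 7 were lower and 4 higher (53.8% and 30.8%, background 32.6% and 30.1%, median -0.21). PCK2, the mitochondrial PEP carboxykinase, averaged 38.1 ± 0.873 CPM in resistant, 23 ± 0.89 CPM in shYAP_TAZ and 65.2 ± 3.04 CPM in shNTC cells (SD). ATF3, a stress factor that ATF4 induces, averaged 16.4 ± 1.49 CPM in resistant, 5.93 ± 0.115 CPM in shYAP_TAZ and 12.2 ± 1.39 CPM in shNTC cells. SESN3, a relative of SESN2, was 4.65-fold lower on knockdown and reached a mean of 3.32 ± 0.227 CPM in shNTC cells. VEGFA, the angiogenic factor, rose on knockdown (0.40), and KLHL24, a substrate adaptor of a ubiquitin ligase, was lower in resistant than in shYAP_TAZ cells (-0.51).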

How the data were processed

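RNA was purified from cells lysed on the plate, prepared with a kit that does not mark strand and read from 1 end, 50 bases at a time, per the labels' protocols. GSNAP, the build GRCh38.p10 and limma are named in the submitters' processing notes. The counting tool and annotation are not given in the sources used here. The deposited tables hold raw counts per Ensembl gene and RPKM values computed by the authors. On 186545 values, RPKM equalled the count scaled by the column total and 1 constant per gene to a relative deviation of at most 1.3e-06. All sample columns were used. Groups came from the titles.

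Current symbols came from a gene name reference by Ensembl identifier, with GENCODE 29 names where it had none. Gene positions came from GENCODE 29. The 12 synthetases carry older symbols in GENCODE 29 and were matched by identifier. Counts were tested with edgeR 4.0.16 in R 4.3.3 (TMM factors, filterByExpr, 1 quasi-likelihood fit of all 8 libraries, Benjamini-Hochberg adjustment over 16256 genes, threshold 0.05, two-sided). The common coefficient of variation between libraries of a group was 5.35%, and log2 fold changes carry SE and 95% intervals. The procedure was tested on simulated data. Libraries of a group correlated with r of at least 0.9939 and differed by more than sampling noise (chi-square per degree of freedom 2.11 to 7.61). Alternatives were other scaling factors, DESeq2 1.42.0, limma 3.58.1 (voom on counts, trend on log2(RPKM + 0.1) and log2(RPKM + 1)), other filters, only the groups compared, a replicate block and each library left out.

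The members and lists were chosen with earlier results of these data known. ATF4 and, per function, the 3 members with the largest called change and at least 1 CPM got values in every library, as did members against their group's majority, some of them by group mean. TRIB3, DDIT3, SLC1A4, IARS1, PHGDH, PYCR1, CEBPB, CEBPG and the members given by fold change alone were described after their values were seen. Other lists gave up to 3 genes plus up to 1 against the majority in a comparison, and 1 gene so taken is not reported here. The medians over 20 neighbouring genes, the exon overlaps and the pseudogene counts were added after the data were seen.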

Additional observations from a re-analysis of the deposited data

How the results depend on the processing

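The counts of members that rose or fell stayed within 1.5 times their value in every one of 19 alternative settings, and no member changed direction past the threshold. Members that fell on knockdown numbered 26 to 32 and those that rose 2 to 3. In resistant against shYAP_TAZ cells 17 to 22 rose and 8 to 9 fell, and in resistant against shNTC cells 4 to 8 were higher and 20 to 23 lower. Leaving out each of the 8 libraries in turn gave 26 to 32 falls on knockdown, 17 to 21 rises in resistant against shYAP_TAZ cells and 20 to 23 lower members in resistant against shNTC cells. Of 114 tests of a member in a comparison, 20 changed their call under at least 1 setting. Settings that kept every library ended the knockdown calls of ASNS, PYCR1, SLC7A1, STC2 and YARS1, that of GARS1 in resistant against shYAP_TAZ cells, and those of PSPH, PYCR1 and TRIB3 in resistant against shNTC cells. With the replicate number as a block, 30 members fell and 2 rose on knockdown, 19 rose and 8 fell in resistant against shYAP_TAZ cells, and 21 were lower and 5 higher in resistant against shNTC cells. The labels do not say that equal numbers mark a shared culture or day, and deviations from the group means correlated at -0.103 to 0.111 between same-numbered libraries of different groups and at -0.127 to 0.127 between the others. Scaling by other factors moved the median of all genes by at most 0.061 on the log2 scale.

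The main limits are the small number of libraries, with 2 in the shNTC group, and the single tumour-derived line behind the resistant group. A share near 30% of all tested genes passed in each direction of every comparison. ASNS, NUPR1, STC2, CTH and SLC6A9 rest on low counts. The levels of ASNS, CBS and DDIT3 are uncertain because each shares sequence or position with another gene. Without strand, the same holds in part for DDIT4, MTHFD2, PYCR1, SLC1A5 and SLC6A9, with 41.16%, 33.24%, 29.73%, 23.83% and 7.83% of exonic bases overlapped. The gene of the opposite strand with the largest overlap had 0, 91, 0, 16 and 1566 counts in these cases. Other members are overlapped too, such as MARS1 (13.33%), CEBPB (11.81%), WARS1 (10.57%), SHMT2 (9.51%) and VLDLR (7.9%). YARS1 (4.82%) overlaps S100PBP on the opposite strand, which had 3238 counts.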

Other observations

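Chaperones and folding factors of the endoplasmic reticulum, whose stress also feeds ATF4, were examined as a neighbouring programme. Of 18 tested genes, 11 fell and 4 rose on knockdown (61.1% and 22.2%, background 30.4% and 30.3%, median log2 fold change -0.30). In resistant against shYAP_TAZ cells 7 rose and 5 fell (38.9% and 27.8%, background 31.0% and 31.4%, median 0.01). In resistant against shNTC cells 11 were lower and 5 higher (61.1% and 27.8%, background 32.6% and 30.1%, median -0.29). HSPA5, the chaperone BiP, averaged 423 ± 10.9 CPM in resistant, 693 ± 13.2 CPM in shYAP_TAZ and 948 ± 90.3 CPM in shNTC cells (SD, n = 3, 3 and 2). EDEM1, which directs misfolded glycoproteins to degradation, averaged 127 ± 3.1, 62.9 ± 2.4 and 111 ± 2.08 CPM in these groups, and HERPUD1, a component of the same degradation route, 61.6 ± 1.83, 53.2 ± 0.32 and 104 ± 2.19 CPM. SDF2L1, an induced component of chaperone complexes, was higher in resistant than in shNTC cells by 0.87 on the log2 scale.

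Among transporters outside the members, those of acidic amino acids differed between groups. SLC1A3, the glutamate and aspartate transporter EAAT1, had 7.7, 7.16 and 8.15 CPM in resistant libraries, 88.4, 90.8 and 94.7 CPM in shYAP_TAZ libraries, and 102 and 99.7 CPM in shNTC libraries, which made it 11.9-fold lower in resistant than in shYAP_TAZ cells (edgeR adjusted p = 6.1e-19). On knockdown its log2 fold change of -0.14 did not pass (edgeR adjusted p = 0.053), though it did under 6 alternatives, such as RLE factors (0.0498). SLC1A1, the related transporter EAAT3, averaged 30.9 ± 1.2 CPM in resistant, 45.2 ± 1.71 CPM in shYAP_TAZ and 13.5 ± 0.434 CPM in shNTC cells. SLC43A1, a transporter of large neutral amino acids like LAT1, averaged 0.703 ± 0.248, 1.01 ± 0.0699 and 2.78 ± 0.466 CPM in these groups.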
